A study of Mus musculus with 6 samples.

Results

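The 10 genes described here are a part of the heat shock protein and HSP90 chaperone genes transcribed in mouse uterine stromal cells. They were taken as a named list of gene symbols: Hsp90aa1 and Hsp90ab1 for the cytosolic HSP90 proteins, Hspa1a, Hspa1b and Hspa8 for cytosolic HSP70 proteins, Hsph1 for the HSP110 protein, Dnajb1 for an HSP40 cochaperone, Hspb1 for a small heat shock protein, and Hspd1 and Hspe1 for the mitochondrial chaperonin. All 10 were among the 54232 genes of the count table, and all 10 were among the 17471 genes that could be tested. RNA-seq was carried out on 6 libraries of primary uterine stromal cells collected on day 4 of pseudopregnancy as the study's methods and the extraction protocol have it (the time label of the samples says pregnancy), 3 labelled WT and 3 labelled Pbrm1 cKO, to ask which transcripts depend on PBRM1, a subunit of the PBAF form of the SWI/SNF chromatin remodelling complex. The study describes the controls as Pbrm1 fl/fl females, so that the floxed allele was shared by both groups, and the Pbrm1 cKO females as Pbrm1 fl/fl animals that also carried Cre at the progesterone receptor locus, which is active only in cells that express this receptor. Females were 8 to 12 weeks old, and 5 to 10 uterine horns were pooled to make the cells. Tissue was digested with collagenase at 37°C for 30 min, and the cells were plated for 4 h and kept for a further 2 h in fresh medium before collection, in the same way for both groups. The study calls the replicates biological, while the labels give replicate numbers and do not say which animals went into which library, and the p-values below measure only the spread between these libraries.

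Heat shock proteins are molecular chaperones. HSP70 proteins bind unfolded segments of client proteins in a cycle driven by ATP, J-domain (HSP40) proteins deliver clients and stimulate that cycle, and HSP110 and BAG proteins exchange the nucleotide. HSP90 receives clients from HSP70 and, with cochaperones of the immunophilin family such as FKBP52 and FKBP51, holds steroid receptors, including the progesterone receptor, in a state that can bind hormone. Some members, among them Hsp90ab1 and Hspa8, are constitutive genes, whereas Hspa1a, Hspa1b, Hspb1, Dnajb1 and Hsph1 are induced by heat shock factor 1 (HSF1) through heat shock elements, inverted repeats of the bases GAA.

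The libraries held 13253575 to 18338667 assigned reads. Pbrm1 itself, the check of the labels, was counted 1267, 1248 and 1551 times in the WT libraries and 402, 574 and 481 times in the Pbrm1 cKO libraries, a log2 fold change of -1.76 (SE 0.13, adjusted p = 5.19e-40), and the groups did not overlap. All 14 stromal markers had counts, and 8 fell and 1 rose (median log2 fold change -0.41), with summed levels of 124451 to 141552 normalized counts in WT and 95980 to 104208 in Pbrm1 cKO. Leukocyte markers moved with genotype: 14 of 15 tested rose, and their summed level was 4922 to 10667 in WT and 44219 to 45718 in Pbrm1 cKO. WT replicate 1 held the lowest of these sums, and its endothelial marker sum of 3422 also lay below the 6925 and 6952 of the other two WT libraries. Of 15 epithelial markers tested, 6 rose (sums of 2013 to 3641 in WT and 3980 to 4174 in Pbrm1 cKO), and of 11 smooth muscle markers 6 fell (59649 to 65333 against 55216 to 57132). Of 12 endothelial markers 4 fell and 1 rose (sums of 3029 to 3612 in Pbrm1 cKO), and all 4 red cell markers tested rose (2.14 to 8.65 against 136 to 260). The part of these cell types in the results below was not tested, and in bulk RNA fewer cells of a type cannot be told apart from less RNA per cell.

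In the Pbrm1 cKO cells the transcripts of Hspa8, Hspa1b and Hsp90aa1 fell, Hspb1 transcripts rose, and the other 6 members did not pass the test (DESeq2 Wald test, Benjamini-Hochberg adjusted p under 0.05 over all genes tested). The largest difference was that of Hspa8, which kept 49.3% of its WT level in the Pbrm1 cKO cells. Over all genes tested the comparison called 31.1%, with 15.9% higher and 15.2% lower, so that the 4 of 10 members called, 1 higher and 3 lower, lay near the background. The median log2 fold change of the members was -0.14, beside -0.00 for all genes tested, and their median absolute log2 fold change was 0.23, beside 0.37. The first of these medians moved to -0.0598 when WT replicate 1 was left out, and to -0.0574 after removal of the trend with exon length. For 5 members every library of 1 group lay above every library of the other, beside 48.6% of all genes tested.

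**Figure D1:**
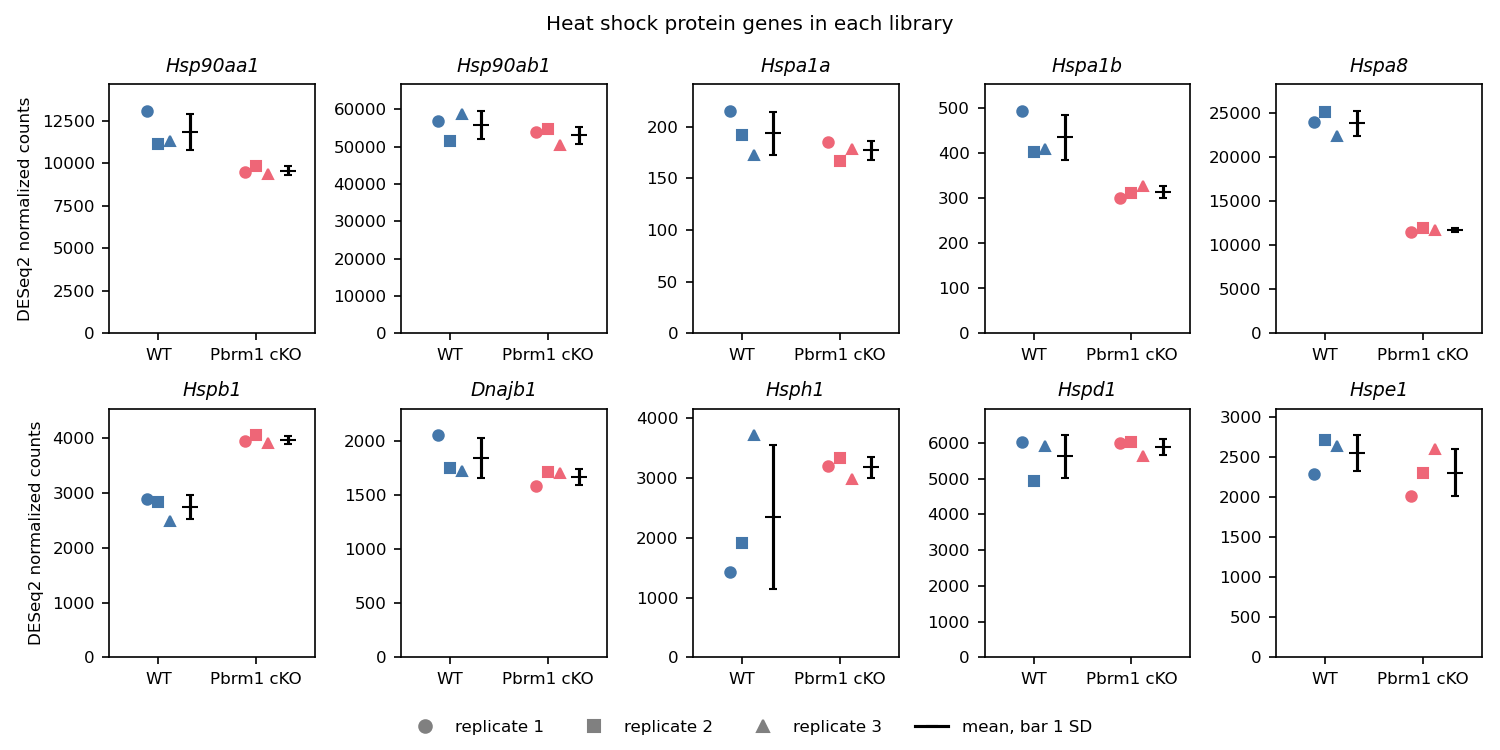
DESeq2 normalized counts (y axis, from 0) of each heat shock gene in the 3 WT (blue) and 3 Pbrm1 cKO (red) libraries. Marker shapes give the replicate number, and the black bar is the mean with 1 SD. Hspa8, Hspa1b, Hsp90aa1, Hspb1 and Dnajb1 show no overlap between groups, and WT replicate 3 of Hsph1 (3713) stands above the other WT libraries.

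Hspa8 (ENSMUSG00000015656, chr9:40800984-40810087, plus strand) encodes HSC70, the constitutive cytosolic HSP70 that folds new proteins and uncoats clathrin vesicles. Its normalized counts were 24053, 25114 and 22361 in WT and 11488, 11992 and 11765 in Pbrm1 cKO. All Pbrm1 cKO libraries lay far below all WT libraries, and the libraries within each group lay close together (SD 1389 and 252). The log2 fold change was -1.02 (SE 0.08, 95% interval -1.18 to -0.86, adjusted p = 2.78e-33). Hspa8 took 0.151% to 0.171% of the counts of a WT library and 0.0784% to 0.0818% of a Pbrm1 cKO library. The share of all 10 members together was 0.726% ± 0.025 (SD, n = 3) in WT and 0.630% ± 0.015 (SD, n = 3) in Pbrm1 cKO, whereas without Hspa8 the groups overlapped, at 0.526% to 0.590% and 0.534% to 0.563%.

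Hspa8 has many processed pseudogenes, copies of its spliced mRNA elsewhere in the genome, and the reads were single-end and 50 bases long. Of the 2345 windows of 50 bases in its annotated mRNA, 74.8% also occurred, letter for letter, in transcripts of other annotated genes. The closest copy, Gm15459 (chr5:5781615-5783555, minus strand, a gene chosen after its values were seen), matched the 1938 bases of Hspa8 coding sequence at 99.74% of positions, with 5 mismatches, and held 86.8% of the windows of 50 bases in that coding sequence. The stretch below, bases 55 to 114 of the coding sequence, shows how little separates the gene and its copy in a span longer than 1 read. Capitals mark the 1 base that differs. The sequences are GENCODE transcripts read 5′ to 3′.
Hspa8: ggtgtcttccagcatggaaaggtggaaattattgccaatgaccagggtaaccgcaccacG
Gm15459: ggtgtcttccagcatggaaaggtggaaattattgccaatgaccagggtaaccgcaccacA

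Gm15459 had 6076, 6639 and 5625 normalized counts in WT against 5876, 6039 and 6220 in Pbrm1 cKO. These levels overlapped between groups, and the log2 fold change was -0.02 (SE 0.09, 95% interval -0.20 to 0.17, adjusted p = 0.927). For every 100 counts assigned to Hspa8, 25.2 to 26.4 were assigned to Gm15459 in WT and 50.4 to 52.9 in Pbrm1 cKO. When the 12 annotated processed pseudogenes that share windows with Hspa8 were summed with it, an alternative chosen after seeing the data, the log2 fold change of the sum was -0.75 (SE 0.08, adjusted p = 1.12e-17). Of the 12, 10 could be tested: 3 fell, none rose and 7, Gm15459 among them, were not called, 5 with values below 0 and 2 above. Those that fell, Gm8355, Gm6210 and Gm7899, had 15 to 115 counts per library (log2 fold changes of -0.64, -0.64 and -1.15, adjusted p = 0.0333, 0.0341 and 0.0157). Whether the reads assigned to Gm15459 came from the pseudogene or from Hspa8 mRNA was not tested.

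**Figure D2:**
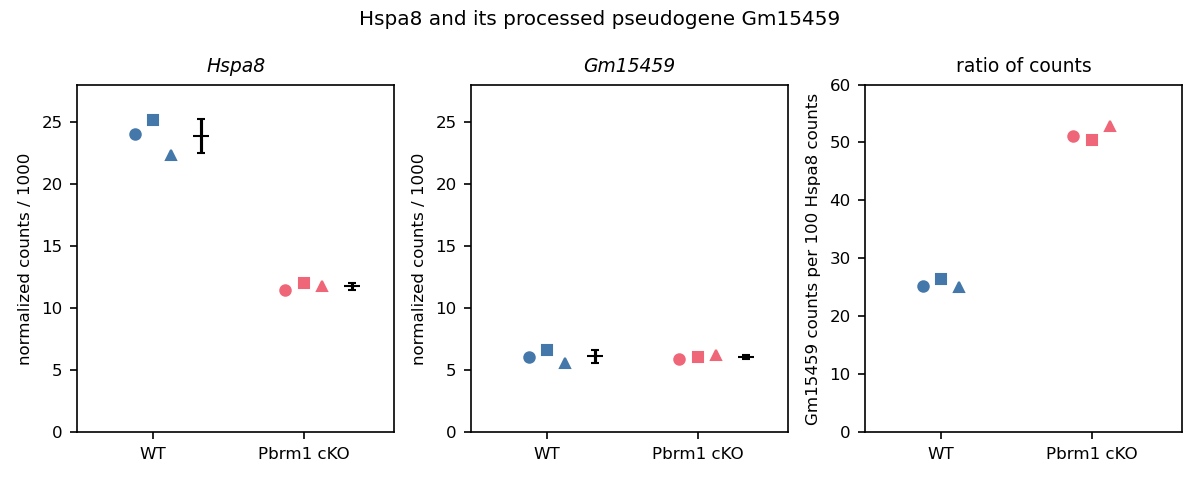
Normalized counts, divided by 1000, of Hspa8 (left) and of its processed pseudogene Gm15459 (middle), and counts assigned to Gm15459 per 100 assigned to Hspa8 (right), in WT (blue) and Pbrm1 cKO (red) libraries, all axes from 0. Marker shapes give the replicate number, and black bars are means with 1 SD. Hspa8 is lower in Pbrm1 cKO, Gm15459 overlaps between groups, and their ratio goes from 25.2 to 26.4 in WT to 50.4 to 52.9 in Pbrm1 cKO.

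Hspa1a (ENSMUSG00000091971, chr17:34969190-34972156, minus strand) and Hspa1b (ENSMUSG00000090877, chr17:34956436-34959238, minus strand) are neighbouring genes that encode the stress-inducible HSP70. Hspa1b had 493, 402 and 410 normalized counts in WT against 300, 312 and 327 in Pbrm1 cKO. The groups did not overlap, and the log2 fold change was -0.47 (SE 0.14, adjusted p = 0.00378). Hspa1a had 215, 192 and 173 normalized counts in WT against 185, 167 and 178 in Pbrm1 cKO. Its groups overlapped, and its log2 fold change of -0.13 had a 95% interval of -0.46 to 0.20 (adjusted p = 0.637).

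The coding sequences of Hspa1a and Hspa1b matched at 99.6% of 1923 aligned bases, and 66.3% of the windows of 50 bases in the Hspa1a mRNA and 62.3% of those in the Hspa1b mRNA occurred in other genes, mostly in each other. The split of reads between them is therefore uncertain, and counting kept only reads placed at a single locus. Bases 1357 to 1416 of both coding sequences are shown with their 2 differing bases in capitals, to mark the kind of position that can assign a read to 1 gene.
Hspa1a: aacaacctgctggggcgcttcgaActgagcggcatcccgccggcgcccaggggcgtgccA
Hspa1b: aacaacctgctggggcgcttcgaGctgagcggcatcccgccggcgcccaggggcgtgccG

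When the counts of Hspa1a and Hspa1b were summed before the fit, the sum fell (log2 fold change -0.36, adjusted p = 0.0172). The ratio of Hspa1a to Hspa1b levels per kilobase was 0.412, 0.451 and 0.399 in WT and 0.584, 0.505 and 0.514 in Pbrm1 cKO. Every Pbrm1 cKO ratio lay above every WT ratio. Hspa8 matched Hspa1a at 74.5% of aligned coding bases and shared no window of 50 bases with it.

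Hsp90aa1 (ENSMUSG00000021270, chr12:110690605-110702728, minus strand) encodes HSP90α, the inducible cytosolic HSP90. It had 13055, 11118 and 11296 normalized counts in WT against 9496, 9838 and 9373 in Pbrm1 cKO. The groups did not overlap, with WT replicate 1 the highest library, and the log2 fold change was -0.31 (SE 0.09, adjusted p = 0.00562). This call was lost without Pbrm1 cKO replicate 1 (-0.30, adjusted p = 0.0581) and without Pbrm1 cKO replicate 3 (-0.29, adjusted p = 0.0584). Hsp90ab1 (ENSMUSG00000023944, chr17:45567775-45573271, minus strand) encodes HSP90β, the constitutive form. Its normalized counts were 56929, 51527 and 58779 in WT and 53962, 54770 and 50482 in Pbrm1 cKO. These groups overlapped, and the log2 fold change of -0.07 had a 95% interval of -0.24 to 0.10 (adjusted p = 0.612).

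The level of Hsp90aa1 per kilobase, divided by that of Hsp90ab1, was 0.175, 0.165 and 0.147 in WT and 0.134, 0.137 and 0.142 in Pbrm1 cKO. The groups did not overlap, but WT replicate 3 lay close to Pbrm1 cKO replicate 3. Coding sequences of the HSP90 pair matched at 76.3% of aligned bases and shared no window of 50 bases. Other copies of Hsp90aa1 took few reads: Gm12346, which holds 57.5% of its windows, had 19 to 25 counts per library.

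Hspb1 (ENSMUSG00000004951, chr5:135887919-135889563, plus strand) encodes HSP25, the mouse form of HSP27, a small heat shock protein that holds unfolded proteins without ATP and binds actin filaments. It had 2898, 2837 and 2498 normalized counts in WT against 3960, 4057 and 3913 in Pbrm1 cKO. The groups did not overlap, and the log2 fold change was 0.54 (SE 0.09, adjusted p = 1.30e-07). Hspb1 was the only member called higher. Its processed pseudogene Hsp25-ps1 on chromosome 13, which holds 58.9% of the windows of Hspb1, had 221 to 260 counts in WT and 311 to 419 in Pbrm1 cKO (log2 fold change 0.35, adjusted p = 0.0471).

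Hsph1 (ENSMUSG00000029657, chr5:149614287-149636376, minus strand) encodes HSP105, an HSP110 protein that exchanges nucleotide on HSP70. It had 1434, 1906 and 3713 normalized counts in WT against 3205, 3327 and 2987 in Pbrm1 cKO. WT replicate 3 was the highest of all 6 libraries, and the other two WT libraries lay below all Pbrm1 cKO libraries. The log2 fold change was 0.43 (SE 0.41, 95% interval -0.37 to 1.24, adjusted p = 0.481). Without WT replicate 3 it was 0.92 (adjusted p = 1.62e-11), without WT replicate 1 it was 0.17 (adjusted p = 0.763), and without WT replicate 2 it was 0.30 (adjusted p = 0.728), so that the value and the call depended on which WT libraries were kept. Its SD was 51.2% of the mean in WT and 5.44% in Pbrm1 cKO, whereas no other member had an SD above 12.8% of its mean in either group. No window of 50 bases of the Hsph1 mRNA occurred in another gene.

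Dnajb1 (ENSMUSG00000005483, chr8:83608193-83612653, plus strand) encodes HSP40, the J-domain partner of inducible HSP70. It had 2055, 1754 and 1728 normalized counts in WT against 1583, 1713 and 1706 in Pbrm1 cKO. The groups did not overlap, although their nearest libraries differed by little, and the log2 fold change of -0.15 had a 95% interval of -0.36 to 0.06 (adjusted p = 0.327). The ratio of Dnajb1 to Hspa8 levels per kilobase was 0.0937 to 0.115 in WT and 0.185 to 0.195 in Pbrm1 cKO, and that of Hsph1 to Hspa8 was 0.0353 to 0.0983 in WT and 0.15 to 0.165 in Pbrm1 cKO. The levels of these HSP70 partners relative to Hspa8 did not overlap between groups, and Hspa8 is the denominator of both ratios.

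Hspd1 (ENSMUSG00000025980, chr1:55077835-55088243, minus strand) and Hspe1 (ENSMUSG00000073676, chr1:55088132-55091307, plus strand) encode HSP60 and its lid HSP10, the chaperonin that folds imported proteins in the mitochondrial matrix. They lie head to head on chromosome 1. Hspd1 had 6013, 4935 and 5911 normalized counts in WT against 5986, 6018 and 5622 in Pbrm1 cKO, and the groups overlapped (log2 fold change 0.06, 95% interval -0.14 to 0.27, adjusted p = 0.712). Hspe1 had 2296, 2720 and 2640 in WT and 2018, 2303 and 2607 in Pbrm1 cKO, again overlapping (log2 fold change -0.14, 95% interval -0.39 to 0.10, adjusted p = 0.425). The ratio of Hspd1 to Hspe1 levels per kilobase ranged from 1.01 to 1.46 in WT and from 1.20 to 1.66 in Pbrm1 cKO. The Hspd1 pseudogene Hspd1-ps3 held 42.8% of the windows of Hspd1 and had 486 to 945 counts per library (log2 fold change 0.10, adjusted p = 0.670).

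**Figure D3:**
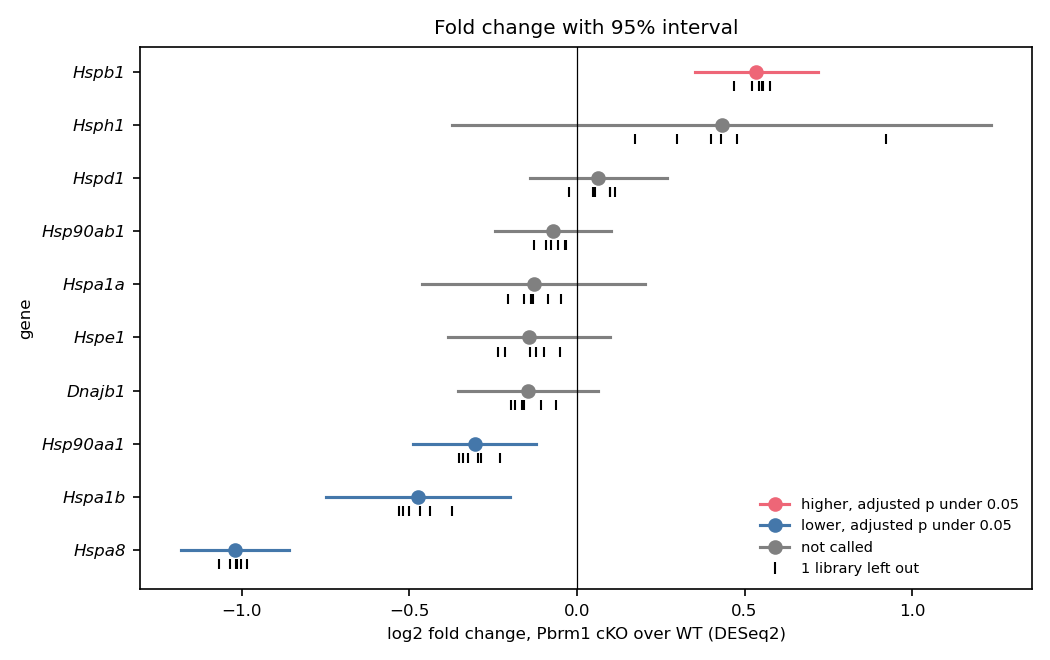
Log2 fold change of Pbrm1 cKO over WT (x axis, DESeq2) for each heat shock gene, as a point with its 95% interval, ordered from highest to lowest. Red marks a gene called higher, blue genes called lower and grey genes not called, and the black ticks below each line are the values with 1 library left out. Hspa8 lies lowest at -1.02, Hspb1 is the only gene called higher at 0.54, and the interval of Hsph1 runs from -0.37 to 1.24.

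Levels of different members were compared per kilobase of all annotated exons of a gene, the length given in the count table, and from reads placed at a single locus, which can leave out reads from windows shared with copies. The shared part was unequal, from 0% of the windows of Hsph1, 0.441% for Dnajb1 and 4.49% for Hsp90ab1 to 44.8% for Hspd1 and for Hspe1, 60.4% for Hspb1, 62.3% for Hspa1b, 65.6% for Hsp90aa1, 66.3% for Hspa1a and 74.8% for Hspa8, and the levels and their order were not corrected for it. In WT cells Hsp90ab1 was highest, at 18588 ± 1257 normalized counts per kilobase (SD, n = 3), followed by Hspa8 at 5543 ± 323, Hsp90aa1 at 3008 ± 272, Hspb1 at 2662 ± 209, Hspd1 at 2127 ± 225 and Hspe1 at 1731 ± 153. Dnajb1 at 576 ± 56.8, Hsph1 at 324 ± 166, Hspa1b at 155 ± 18 and Hspa1a at 65.1 ± 7.07 were the lowest. In Pbrm1 cKO cells Hsp90ab1 was again highest, at 17696 ± 760 per kilobase. Hspb1 was second at 3857 ± 71.6, above Hspa8 at 2731 ± 58.7 and Hsp90aa1 at 2434 ± 61.2, and the order of the other 6 members was that of WT. In neither group did the libraries of genes next to each other in this order overlap, but in WT the nearest libraries of 4 neighbouring pairs differed by less than the SD of each gene of the pair: Hsp90aa1 (2828) and Hspb1 (2811), Hspb1 (2423) and Hspd1 (2276), Hspd1 (1868) and Hspe1 (1845), and Dnajb1 (539) and Hsph1 (511). The order also changed with the length used. Per kilobase of the annotated mRNA, an alternative chosen after seeing the data, Hspa8 (4907 ± 105) lay above Hspb1 (4404 ± 81.7) in Pbrm1 cKO, and Hsp90ab1 remained highest in both groups, at 22121 ± 1495 in WT and 21060 ± 904 in Pbrm1 cKO. On that scale Hspe1 lay above Hspd1 in both groups (3297 ± 291 and 2319 ± 246 in WT) and, in WT, above Hspb1 (3039 ± 238, with overlapping libraries), and Hsph1 above Dnajb1 (749 ± 383 and 616 ± 60.7 in WT, where their libraries overlapped). Hspa1b and Hspa1a were lowest on both scales. By level per kilobase of exon, Hsp90ab1 stood at percentile 99.9 of the genes tested and Hspa1a at percentile 57.6.

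**Figure D4:**
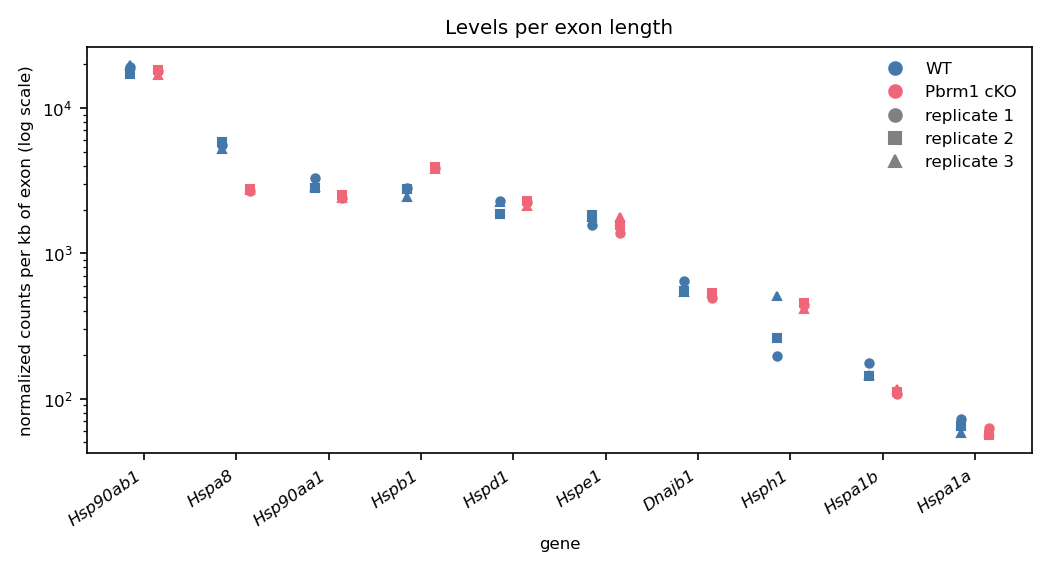
Normalized counts per kilobase of exon (y axis, log scale) of each heat shock gene in WT (blue) and Pbrm1 cKO (red) libraries, ordered by the WT mean, with marker shapes for replicate numbers. Levels run from Hsp90ab1 (18588 in WT) to Hspa1a (65.1 in WT). Hspa8 follows Hsp90ab1 in WT (5543), and in Pbrm1 cKO (2731) it lies below Hspb1 (3857), an order that turned per kilobase of mRNA (4907 and 4404).

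RefSeq promoter windows of build GRCm38.p6, from 250 bases before to 50 bases after a start site, were at hand for 7 members: Hspa1a, Hspa1b, Hspb1, Hsph1, Dnajb1, Hspd1 and Hspe1. Both strands were searched for a heat shock element of 2 inverted units, GAANNTTC or TTCNNGAA, where N is any base. It was found for 6 of the 7 members, and for 17.0% of the 27025 genes with a window of that length. A further inverted unit next to it, which makes at least 3 units in a row and overlaps the shorter match, was found for Hsph1, Hspd1 and Hspe1, and for 0.662% of genes. In the sequence shared by Hspd1 and Hspe1, 3 overlapping matches of the shorter element and 2 of the longer lay in a row. For Hsph1 the longer element lay past the start site and is not printed. No match of these letters lay in the 2 windows of Dnajb1. The stretches below show the matches, in capitals, because genes that carry them differed in direction: Hspb1 rose, Hspa1b fell, and Hspa1a, Hsph1, Hspd1 and Hspe1 were not called. Each is written 5′ to 3′ on the strand of its gene, with up to 30 bases on each side and none beyond the start site.
Hspa1a, chr17:34972223-34972290 (minus strand): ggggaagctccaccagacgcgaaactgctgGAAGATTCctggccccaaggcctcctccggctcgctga
Hspa1b, chr17:34959305-34959372 (minus strand): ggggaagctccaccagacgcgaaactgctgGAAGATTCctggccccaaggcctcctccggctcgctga
Hspb1, chr5:135887772-135887859 (plus strand): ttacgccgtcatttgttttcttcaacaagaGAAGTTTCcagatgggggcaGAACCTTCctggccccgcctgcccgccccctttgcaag
Hsph1, chr5:149636337-149636399 (minus strand): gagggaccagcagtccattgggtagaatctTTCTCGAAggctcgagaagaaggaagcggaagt
Hspe1, chr1:55088029-55088106 (plus strand): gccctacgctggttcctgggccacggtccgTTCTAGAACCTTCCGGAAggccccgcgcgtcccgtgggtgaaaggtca

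The Hspa1a and Hspa1b windows differed at 4 of 300 bases, and both held the match 104 bases before the start site. In the Hspb1 window the matches began 117 and 97 bases before the start. For Hsph1 the match began 33 bases before the start of 1 window, and matches that form the 3-unit element began 36 and 41 bases after it. The Hspe1 window overlapped an Hspd1 window over 285 bases, so that the element shown, which begins 89 bases before the Hspe1 start, was the same sequence that the Hspd1 window holds on the other strand. These matches are descriptions of sequence, and binding of a factor there was not measured here.

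Among the regulators, Hsf1, the main factor of the heat shock response, had 609, 457 and 445 normalized counts in WT against 694, 652 and 645 in Pbrm1 cKO. The groups did not overlap, and the transcript rose by a log2 fold change of 0.40 (SE 0.15, adjusted p = 0.0252). It was the only 1 of 7 heat shock factors and regulators called, with a list median of -0.15. The other lists of chaperone genes are set beside the 15.9% of all genes called higher and the 15.2% called lower, and the lists had been chosen with earlier results of these data known. Some genes stand in more than 1 list, so that the tallies of the lists are not independent.

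Of 24 HSP90 cochaperones tested, 9 fell and 3 rose (median log2 fold change -0.16). Fkbp4, which encodes FKBP52, a cochaperone that promotes progesterone receptor activity, had 4778, 4312 and 5344 normalized counts in WT against 2665, 2854 and 2752 in Pbrm1 cKO (log2 fold change -0.80, SE 0.10, adjusted p = 5.73e-13). Fkbp5, which encodes FKBP51, an inhibitor of steroid receptor function, had 326, 241 and 327 in WT and 526, 544 and 483 in Pbrm1 cKO (0.80, SE 0.15, adjusted p = 2.77e-06). Neither gene overlapped between groups, and the pair moved in opposite directions. Pih1d1, a subunit of the R2TP cochaperone complex, fell (-0.77, adjusted p = 7.41e-05), and Fnip2, a folliculin partner that binds HSP90, rose (0.79, adjusted p = 6.73e-11). Among 14 client receptors and kinases of HSP90, 4 rose and 2 fell (median 0.15), among them Met (1.28), Nr3c1, the glucocorticoid receptor (0.47), and Egfr (0.38), which rose, and Cdk4 (-0.71), which fell (adjusted p = 1.93e-08, 1.56e-05, 0.00467 and 1.96e-19). Nr3c2 had at most 2 counts in WT and 6 in Pbrm1 cKO.

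Of the other HSP70 and HSP110 genes, 6 of 11 fell and none rose (median -0.46). Hspa5, the HSP70 of the endoplasmic reticulum known as BiP, had 41332, 50297 and 52435 normalized counts in WT against 28575, 28865 and 29193 in Pbrm1 cKO (log2 fold change -0.73, SE 0.11, adjusted p = 1.34e-10). Hyou1, an HSP110 of that compartment, Hspa14 and Hspa13 fell too (-0.50, -0.46 and -0.51, adjusted p = 2.12e-08, 8.01e-05 and 0.000374). Of the other HSP90 genes, Hsp90b1 of the endoplasmic reticulum fell (-0.50, adjusted p = 2.72e-05), and mitochondrial Trap1 had a log2 fold change of -0.02 (adjusted p = 0.939).

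Of 12 nucleotide exchange and docking cochaperones of HSP70, 4 fell and 1 rose (median -0.05). Those that fell included Bag2 (-0.84, adjusted p = 2.85e-16) and Bag1 (-0.61, adjusted p = 1.71e-10), which regulate nucleotide exchange on HSP70, and Hspa4l (-0.38, adjusted p = 0.00408) and Sgtb (-0.49, adjusted p = 0.0209). Hspa4l is also counted among the other HSP70 and HSP110 genes above. Of 18 J-domain genes of cytosol and nucleus, 5 rose and 2 fell (median 0.13). Dnajc9, which binds histones H3 and H4, fell (-1.26, adjusted p = 1.02e-14), whereas Dnajc21, Dnajc7 and Dnajb14 rose (0.73, 0.60 and 0.47, adjusted p = 6.28e-08, 7.10e-06 and 0.000564). Dnajb13 had at most 2 counts in any library.

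Of 6 other small heat shock genes tested, Hspb7 rose (0.42, adjusted p = 0.0307, groups overlapping) and Hspb8 fell (-0.19, adjusted p = 0.0404). Hspb3 was at 0 in all libraries, which allows up to 3 counts per library, Hspb9 had at most 1 count, and Cryaa at most 2 in WT and 5 in Pbrm1 cKO. Of 14 other mitochondrial chaperones and proteases 4 fell and 1 rose (median -0.05): Clpp, Htra2 and Grpel1 fell (-0.33, -0.39 and -0.26, adjusted p = 0.00658, 0.00926 and 0.0222), and Afg3l2 rose (0.75, adjusted p = 0.00598). Of 14 subunits of the CCT chaperonin and prefoldin 7 fell and none rose (median -0.19), led by Tcp1, Cct5, Cct6a and Cct3 (-0.42, -0.31, -0.28 and -0.21, adjusted p = 1.40e-06, 0.000705, 0.00561 and 0.0166). Cct6b had at most 3 counts in any library. Of 14 subunits of the proteasome core, which degrades proteins that fail to fold, 7 fell and none rose (median -0.29). Psmb4, Psma2, Psmb3 and Psma4 fell (-0.37, -0.35, -0.38 and -0.32, adjusted p = 0.000371, 0.000671, 0.00141 and 0.00214).

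Of 17 other heat-inducible genes, which share some entries with the lists above, 8 fell and 2 rose (median -0.21). Besides Fkbp4 and Tcp1, Serpinh1, the collagen chaperone HSP47, fell (-0.58, adjusted p = 1.14e-12), whereas Ubb, a ubiquitin gene, rose (1.08, adjusted p = 7.17e-09). Immediate early genes, which respond to tissue dissociation and growth factors, were also examined, and of 16 tested 12 rose and 2 fell (median 0.52). Fosb, Egr1 and Atf3 rose (1.40, 1.29 and 1.38, adjusted p = 1.74e-40, 9.79e-22 and 1.95e-18), and Dusp1 fell (-1.09, adjusted p = 3.79e-18). Their part in the heat shock results was not tested.

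**Figure D5:**
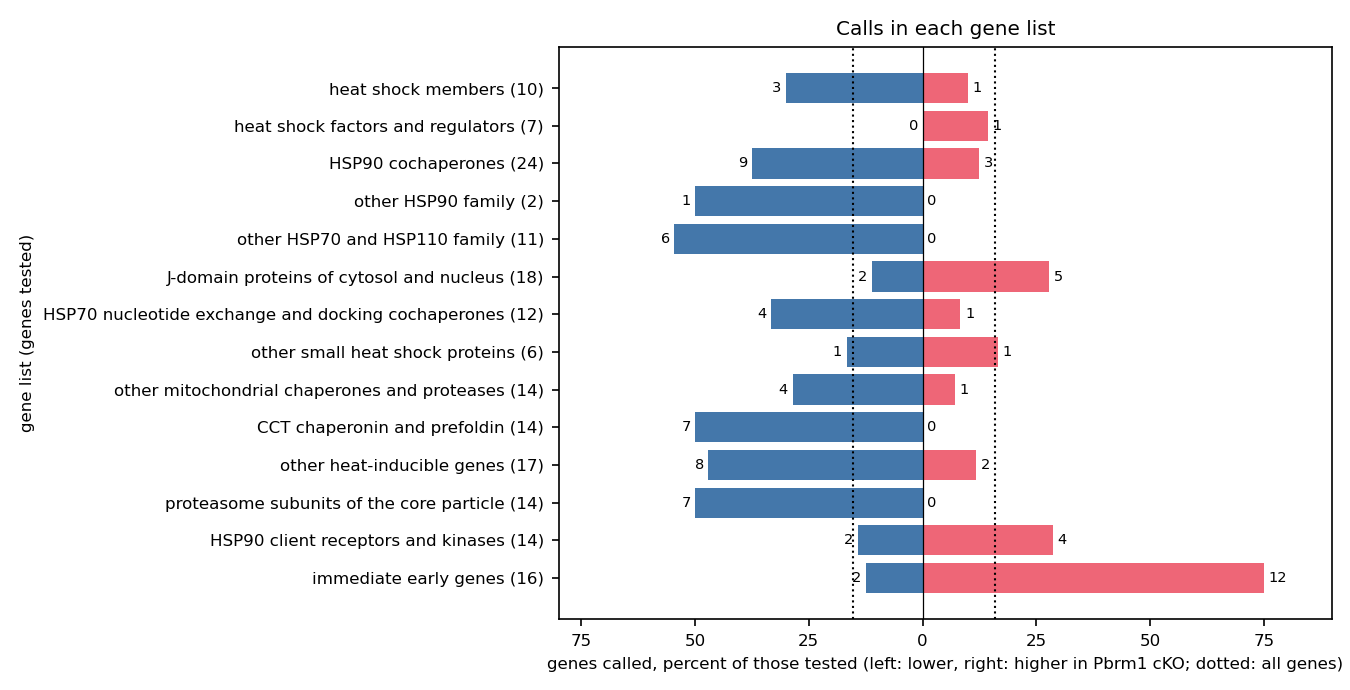
Genes called in each list as a percent of the genes tested (numbers in brackets), to the left those lower and to the right those higher in Pbrm1 cKO, with the counts at the bar ends. Dotted lines mark all genes tested, 15.2% lower and 15.9% higher. The heat shock genes have 3 lower and 1 higher, and the immediate early list has 12 higher. The CCT and prefoldin, proteasome, other HSP70 and other HSP90 lists have no gene higher.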

How the data were processed

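Per the labels and the study's methods, the authors trimmed single-end reads of 50 bases with cutadapt, aligned them with HISAT2 to GRCm38.p5 and counted them per gene of GENCODE M18 with featureCounts 1.6.4 (strand setting 2, reads placed at several loci not counted). The deposited table holds these raw counts for 54232 genes, of which 99.7% of identifiers matched a symbol. The labels describe total RNA with transcript depletion and the methods mRNA selection, and which was used is not settled here. All 6 libraries, grouped by genotype label, entered 1 DESeq2 1.42.0 fit (R 4.3.3, median-of-ratios size factors, default filters, no covariate), with Benjamini-Hochberg adjustment over 17471 genes and a threshold of 0.05. Values are normalized counts, log2 fold changes with SE, and 95% Wald intervals. For Hspa1a and Hspa1b, with the fewest counts of the members, counting error is as large as the spread between Pbrm1 cKO libraries. Levels between genes are per kilobase of the exon length in the table. Shared windows and coding identity were computed from GENCODE M21 transcripts. The alternatives used edgeR 4.0.16 and limma 3.58.1 as well. The members, lists and alternatives were chosen with earlier results of these data known. The text names all members, Pbrm1, Hsf1, at most the 4 genes of each chaperone list with the smallest adjusted p (none of the cell type markers), genes at or near the floor of 3 counts, and pseudogenes of the members. Proteins were not compared here.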

Additional observations from a re-analysis of the deposited data

How the results depend on the processing

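Under the 17 alternatives run, the fall of Hspa8 kept its direction and call in all 17, with log2 fold changes from -1.07 to -0.75, the latter with its pseudogenes summed in. The calls of Hspa1b and Hspb1 were lost only when DESeq2 tested for changes beyond 0.58 on the log2 scale, with adjusted p under 0.1. That test also ended the call of Hsp90aa1, so that 0 members were higher and 1 was lower (Hspa8). It called 1262 genes in all, against 5432. In the DESeq2 Wald test the call of Hspa1b held narrowly without Pbrm1 cKO replicate 1 (adjusted p = 0.0484) and without Pbrm1 cKO replicate 2 (adjusted p = 0.0404). With the replicate block its adjusted p was 0.0402. Leaving out 1 library at a time gave 1 to 2 members higher, 2 to 3 lower and a median log2 fold change of the members from -0.159 to -0.0598. That median was -0.0574 once the trend with exon length was removed, and the cause was not tested. Without WT replicate 2 the log2 fold change of Hspd1 turned to -0.0246 (adjusted p = 0.888), and over all libraries left out in turn it ranged from there to 0.114. Hsp90ab1, Hspa1a, Dnajb1 and Hspe1 kept their direction and stayed uncalled whichever library was left out, but their values moved. The log2 fold change ran from -0.128 to -0.0319 for Hsp90ab1 and from -0.207 to -0.0468 for Hspa1a. It ran from -0.195 to -0.0628 for Dnajb1 and from -0.236 to -0.0515 for Hspe1. Hsp90aa1 and Hsph1, whose calls changed when 1 library was left out, are given above.

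With the replicate block, 1 member was higher and 3 were lower, as without it, with a median of -0.13, and 4012 genes were called in all. Same-numbered libraries did not deviate together (correlations 0.05, -0.05 and -0.00 over 14162 genes). With 3 libraries per group these values cannot show whether same-numbered libraries were prepared together, and the labels do not say. Over all pairs of a WT and a Pbrm1 cKO library the correlations ran only from -0.05 to 0.06. The highest was that of WT replicate 2 with Pbrm1 cKO replicate 3.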
